A study of Mus musculus with 4 samples.

Results

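The 10 nuclear genes that form 5 pairs of a testis isoform and a somatic isoform of the same mitochondrial protein were followed in the circSry knockout (KO) data. The testis members were Cyct, Cox6b2, Cox8c, Slc25a31 and Pdha2, and their somatic partners were Cycs, Cox6b1, Cox8a, Slc25a4 and Pdha1. They were taken by gene symbol and make up 10 of the 53700 genes listed. RNA sequencing was done on primary spermatocytes sorted by Hoechst staining from the testes of 8-week-old C57BL/6 mice. There were 2 libraries in the wild type group (wild type 2 and 3) and 2 in the circSry KO group (KO 1 and KO 2), from 2 mice per group. In the circSry KO mice the splice acceptor that the circular transcript of Sry needs had been deleted by genome editing of zygotes, so the deletion is not limited to the germ line. No drug or other agent was given to either group. The 2 libraries per group set the precision of every value below, and the p-values measure the spread between these libraries only.

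Mitochondria make ATP by passing electrons from complex III through cytochrome c to complex IV, and the mitochondrial ADP/ATP carriers then exchange the ATP for ADP across the inner membrane. The pyruvate dehydrogenase complex feeds this pathway by turning pyruvate into acetyl-CoA. Male germ cells of the mouse express their own versions of several of these proteins from separate genes, of which the testis cytochrome c Cyct, the carrier Slc25a31 (also called Ant4) and the pyruvate dehydrogenase alpha subunit Pdha2 are well known. Pdha1 lies on the X chromosome, which is silenced during male meiosis, and Pdha2 is an intronless autosomal copy.

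The libraries held 8045148 and 8422943 expected counts in wild type and 8839461 and 8191397 in circSry KO. Enough counts for a test were present in 17766 genes. The quasi-likelihood test of edgeR called 3551 of them (20.0%) higher and 2671 (15.0%) lower in circSry KO, where "called" means an adjusted p (Benjamini-Hochberg) under 0.05 together with a change of 1 or more on the log2 scale. The median log2 fold change of all these genes was 0.07, and this scale shift was 0.28 when libraries were scaled by their upper quartile and -0.13 when limma was run on log2(TPM + 1). Sry itself had a count of 0 in all 4 libraries, so it gave no check of the genotype. Markers of spermatocytes were present, but markers of spermatids were also high: 8 elongating spermatid genes summed to 7947 and 7480 TPM (a transcript's share of the library, corrected for transcript length) in wild type and to 49501 and 40042 in circSry KO. Spermatid transcripts were therefore present in every library, and the groups stood apart in their amount.

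The isoforms of a pair can be told apart by short reads because their coding sequences have diverged. Coding sequences were identical at 76.2% of aligned bases in Cyct and Cycs, 75.6% in Pdha2 and Pdha1, 66.9% in Slc25a31 and Slc25a4, 62.1% in Cox6b2 and Cox6b1 and 55.2% in Cox8c and Cox8a. No stretch of 50 bases was shared between any of the 10 genes in GENCODE M39. Stretches of 90 coding bases are printed for the 3 pairs that contain a gene called between the groups, from the GRCm39 genome with GENCODE M39, with capitals for the bases that differ from the partner. The first pair starts at its start codon and differs at 15 of 90 bases.
Cyct: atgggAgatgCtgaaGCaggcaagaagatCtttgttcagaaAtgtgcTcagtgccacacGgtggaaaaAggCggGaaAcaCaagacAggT
Cycs: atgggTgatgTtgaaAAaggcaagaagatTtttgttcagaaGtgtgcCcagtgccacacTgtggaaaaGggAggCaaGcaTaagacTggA
The ADP/ATP carriers differ at 21 of 90 bases in coding bases 66 to 155 of Slc25a31 and 27 to 116 of Slc25a4.
Slc25a31: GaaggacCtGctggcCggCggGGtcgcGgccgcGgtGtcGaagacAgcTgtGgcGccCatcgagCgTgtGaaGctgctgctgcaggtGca
Slc25a4: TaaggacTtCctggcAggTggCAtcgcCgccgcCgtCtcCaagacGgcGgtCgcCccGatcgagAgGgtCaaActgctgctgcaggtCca
The pyruvate dehydrogenase alpha subunits differ at 38 of 90 bases in coding bases 26 to 115 of Pdha2 and 23 to 112 of Pdha1.
Pdha2: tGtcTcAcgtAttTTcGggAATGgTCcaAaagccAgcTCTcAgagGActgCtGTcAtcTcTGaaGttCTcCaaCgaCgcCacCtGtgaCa
Pdha1: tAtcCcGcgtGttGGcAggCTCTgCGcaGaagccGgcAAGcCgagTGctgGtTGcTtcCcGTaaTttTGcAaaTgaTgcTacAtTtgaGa
Cyct lies on chromosome 2 (76184284 to 76196373, minus strand) and its stretch at chr2:76186503-76186592, and Cycs lies on chromosome 6 (50539541 to 50543557) with its stretch at chr6:50542551-50542640. Slc25a31 lies on chromosome 3 (40663285 to 40680527, plus strand) with its stretch within 1 exon at chr3:40663487-40663576, and Slc25a4 lies on chromosome 8 (46656538 to 46664325). Pdha2 lies elsewhere on chromosome 3 (140882078 to 140918116) with its stretch at chr3:140917392-140917481 on the minus strand, whereas the stretch of the X-linked Pdha1 (chromosome X, 158904237 to 158921426) is joined across introns. The complex IV genes lie on chromosome 7 (Cox6b2, 4754789 to 4756093, and Cox6b1, 30316282 to 30325616), chromosome 12 (Cox8c, 102865530 to 102866797) and chromosome 19 (Cox8a, 7192515 to 7194997).

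In wild type spermatocytes every testis isoform was far above its somatic partner. The order of mean TPM was Cox8c (2060), Cox6b2 (1568), Cyct (278), Pdha2 (168), Slc25a31 (109), Cox8a (60.2), Cox6b1 (56.0), Cycs (19.7), Slc25a4 (4.47) and Pdha1 (1.76), each with n = 2. Only the neighbours Cox8a and Cox6b1 had libraries that overlapped. In circSry KO the order ran Cox8c (1730), Cox6b2 (947), Cyct (101), Pdha2 (79.9), Cox6b1 (56.6), Cox8a (46.9), Slc25a31 (42.3), Cycs (17.3), Slc25a4 (8.06) and Pdha1 (5.02). Here Cyct overlapped Pdha2, Cox6b1 overlapped Cox8a, and Cox8a overlapped Slc25a31, so the ADP/ATP carrier of the testis no longer stood above the somatic complex IV subunits. The 5 testis isoforms together gave 4151 and 4214 TPM in the wild type libraries and 3536 and 2266 in KO 1 and KO 2. The lower sum in KO 1 holds by TPM only. Cox8c, the largest part of the sum, had expected counts of 2196 and 2404 in wild type and 3711 and 1734 in KO 1 and KO 2. Those of Cox6b2 were 2289 and 2385 against 2509 and 1380. By expected counts KO 1 thus lay above both wild type libraries for both genes. The 5 somatic isoforms together gave 155 and 129 TPM against 146 and 122, and these sums overlapped.

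**Figure D1:**
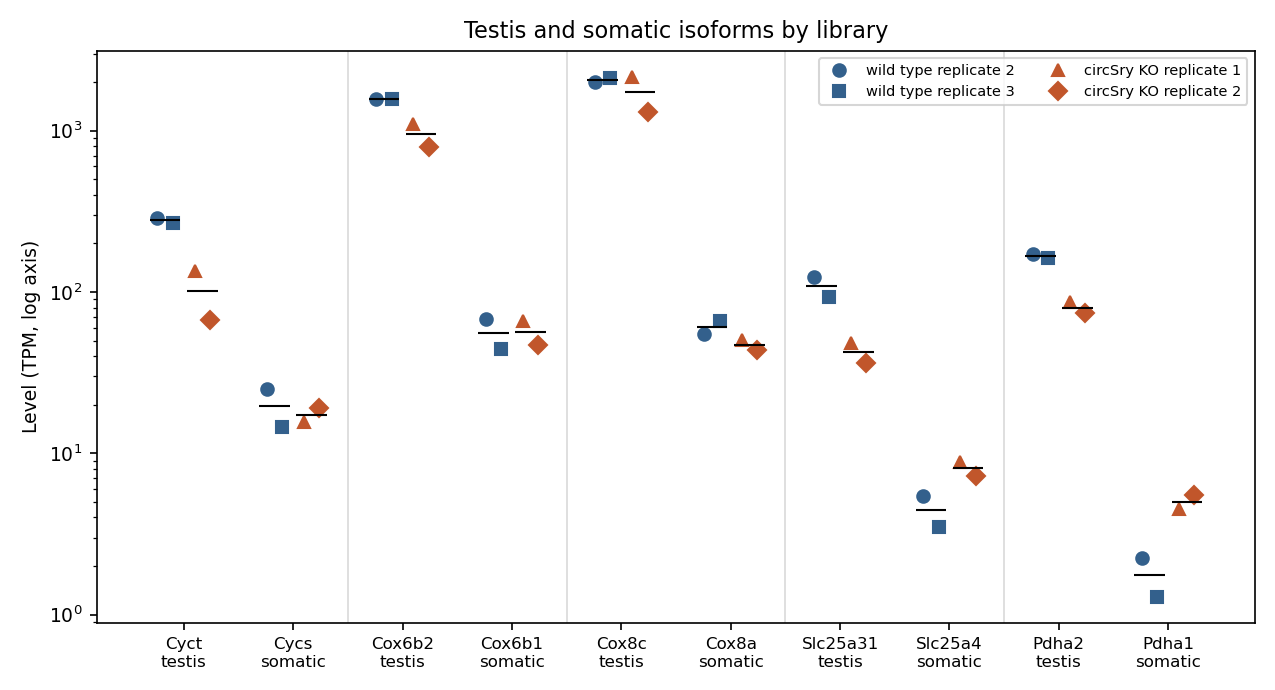
Level of each of the 10 genes in each library, in TPM on a log10 axis, with 1 point per library and a bar at each group mean (n = 2 wild type, n = 2 circSry KO). The circSry KO points of Cyct, Cox6b2, Slc25a31, Pdha2 and Cox8a lie below both wild type points, and those of Slc25a4 and Pdha1 lie above them.

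Of the 10 genes, 2 were called lower (Cyct and Slc25a31) and 2 higher (Slc25a4 and Pdha1), and 6 were not called. All 10 had enough counts to be tested. The called share of all tested genes was 35.0%, so a count of 4 in 10 is near the background and is not by itself a result about these genes. By TPM, both circSry KO libraries lay below both wild type libraries for 5 genes and above them for 2, where 38.8% and 29.5% of all tested genes did so (68.3% in either direction). Both called decreases were testis isoforms and both called increases somatic isoforms. The testis isoforms had a median log2 fold change of -0.81 and the somatic isoforms one of 0.37, beside 0.07 for all genes tested. These are levels in bulk RNA, in which fewer cells of a type and less RNA per cell cannot be told apart.

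**Figure D2:**
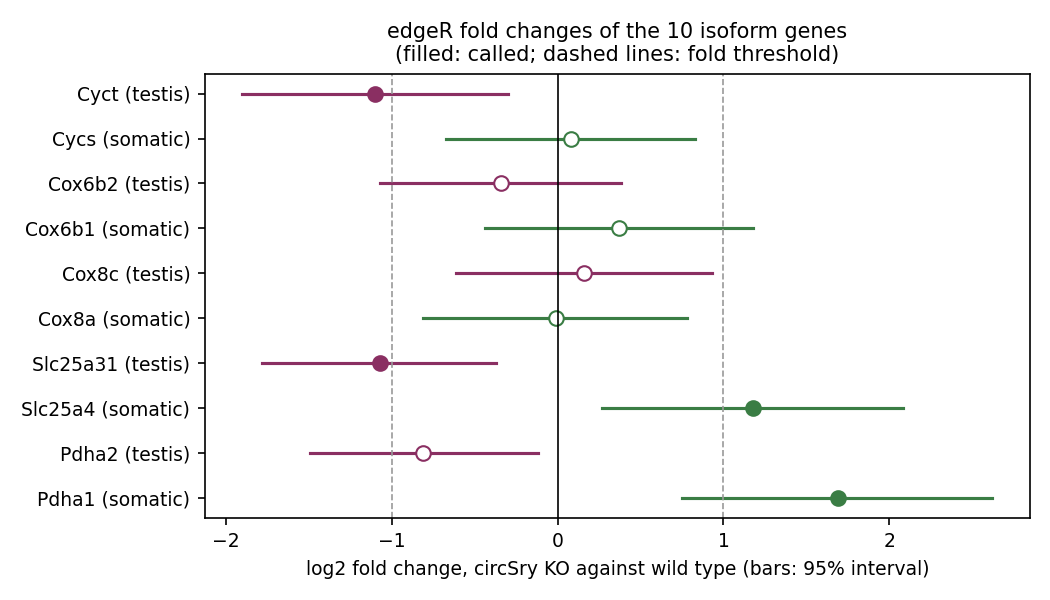
Log2 fold change of circSry KO against wild type for the 10 genes from edgeR's quasi-likelihood test, with the 95% interval as a bar and called genes marked. Cyct (-1.10) and Slc25a31 (-1.07) were called lower, Slc25a4 (1.18) and Pdha1 (1.69) higher, and the intervals of both Cox8 genes, both Cox6b genes and Cycs include 0.

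Cytochrome c carries electrons from complex III to complex IV, and Cyct is its testis form. Cyct stood at 287 and 269 TPM in wild type and at 135 and 67.2 TPM in KO 1 and KO 2, from expected counts of 609, 604, 438 and 165. Both circSry KO libraries were lower, KO 2 more so than KO 1. The log2 fold change of Cyct was -1.10 (SE 0.376, adjusted p = 0.0320, edgeR). Cycs, the cytochrome c of somatic tissues, stood at 24.9 and 14.5 TPM in wild type and at 15.6 and 19.1 TPM in circSry KO, and the groups overlapped. Its log2 fold change was 0.08 (95% interval -0.67 to 0.83, adjusted p = 0.872, edgeR), and its sign turned with limma on TPM (-0.14). The call on Cyct rests on the libraries: it was lost without wild type 2 (adjusted p = 0.159), without wild type 3 (0.110) and without KO 2 (log2 fold change -0.60, 0.0847), under upper-quartile scaling (-0.88, 0.0760) and with a count of at least 50 in at least 2 libraries (-0.96), while without KO 1 the value was -1.89 (8.54e-08, edgeR). Stretches of 50 bases that recur in other genes made up 30.2% of the Cycs transcripts, most of them shared with Gm10053, so the level of Cycs is less certain than that of Cyct, which shares none.

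The ADP/ATP carriers exchange the nucleotides across the inner membrane, and Slc25a31 is the carrier that meiotic cells of the mouse require. Slc25a31 stood at 125 and 92.7 TPM in wild type and at 48.5 and 36.2 TPM in circSry KO, from expected counts of 1215, 983, 709 and 392. Both circSry KO libraries were lower than either wild type library, and the log2 fold change was -1.07 (SE 0.332, adjusted p = 0.0199, edgeR). Slc25a4 (Ant1), the carrier of heart and muscle, stood at 5.44 and 3.49 TPM in wild type and at 8.89 and 7.23 TPM in circSry KO, from expected counts of 45, 33, 116 and 70. Both circSry KO libraries were higher, and the log2 fold change was 1.18 (SE 0.425, adjusted p = 0.0400, edgeR). A further somatic carrier, Slc25a5 (Ant2), which is X-linked, rose by a log2 fold change of 1.12 (adjusted p = 0.0304, edgeR), from 12.8 and 8.99 TPM to 18.5 and 20.5. The rises in Slc25a4 and Slc25a5 were small in absolute level beside the fall in Slc25a31: the 3 carriers summed to 143 and 105 TPM in wild type and to 75.9 and 63.9 TPM in circSry KO. The call on Slc25a31 was lost without wild type 2 (adjusted p = 0.252), wild type 3 (0.0732) or KO 2 (log2 fold change -0.76), with upper-quartile scaling (-0.86, 0.0514) and with a count of at least 50 in at least 2 libraries (-0.94). The call on Slc25a4 was lost without wild type 2 (0.151), wild type 3 (0.316) or KO 1 (0.0947), with DESeq2 (0.0740) and with limma on TPM (0.209), and Slc25a5 was lost without wild type 2 (0.147) or wild type 3 (0.345), with DESeq2 (0.0505) and with limma (0.129).

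The 250 bases before the RefSeq start sites of Cyct and Slc25a31, the testis isoforms that were called lower, are shown because the factors known to act at meiotic promoters in the mouse, among them the MYB protein Mybl1 (A-MYB), bind short motifs there. They come from RefSeq on GRCm38.p6, a build other than that of the count table, at chr2:76360454-76360703 (minus strand) and chr3:40708621-40708870 (plus strand), with matches to the MYB core AACTG on either strand in capitals.
Cyct: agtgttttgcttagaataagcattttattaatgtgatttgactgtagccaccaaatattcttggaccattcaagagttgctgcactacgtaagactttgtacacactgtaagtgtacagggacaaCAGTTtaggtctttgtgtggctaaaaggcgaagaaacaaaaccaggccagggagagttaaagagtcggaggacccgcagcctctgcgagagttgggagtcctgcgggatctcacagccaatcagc
Slc25a31: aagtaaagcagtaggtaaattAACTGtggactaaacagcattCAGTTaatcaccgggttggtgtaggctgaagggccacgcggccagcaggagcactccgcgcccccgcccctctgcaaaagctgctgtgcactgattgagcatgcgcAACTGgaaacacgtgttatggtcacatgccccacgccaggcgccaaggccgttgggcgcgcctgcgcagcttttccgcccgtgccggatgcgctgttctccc
Of the 10 genes, 9 had a RefSeq promoter entry, all but Cox8c. AACTG was found once in that of Cyct and 3 times in that of Slc25a31, and in none of the other 7, against 39.1% of all 32851 promoters. The cyclic AMP response half-site TGACG was found in those of Cycs, Cox6b1 and Cox8a, against 17.8% of all promoters, and the full site TGACGTCA, which contains TGACG, only in that of Cycs (1.55% of all promoters). The E2F motif TCCCGCC (9.75% of all promoters) was found in none of the 9. CpG dinucleotides numbered 6 in the promoter of Cyct, 8 in that of Cox6b2 and 4 in that of Pdha2, and 18 in that of Slc25a31, beside 11 to 23 in those of the somatic isoforms. These matches are letters in a window and are no measure of binding. Any part of Mybl1 in the levels of Cyct or Slc25a31 was not tested. Mybl1 itself was called lower (log2 fold change -1.07, adjusted p = 0.0133, edgeR), a call that was lost without wild type 2 (-0.93, 0.254) or wild type 3 (-1.26, 0.0742), with upper-quartile scaling (-0.86), with a count of at least 50 in at least 2 libraries (-0.93) and with limma (0.0593).

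The pyruvate dehydrogenase pair moved with opposite signs. Pdha2 stood at 173 and 163 TPM in wild type and at 86.2 and 73.6 TPM in circSry KO, from expected counts of 1890, 1931, 1408 and 892. Both circSry KO libraries were lower, but the log2 fold change of -0.81 (SE 0.322, 95% interval -1.49 to -0.12, adjusted p = 0.0600, edgeR) did not pass the test. It passed with limma on TPM (-1.07, adjusted p = 0.0118) and without KO 1 (-1.11, 0.00234, edgeR). Pdha1, the alpha subunit of somatic cells, was the lowest of the 10 genes, at 2.23 and 1.29 TPM in wild type and 4.54 and 5.49 TPM in circSry KO, from expected counts of 30, 19, 83 and 82. It rose by a log2 fold change of 1.69 (SE 0.440, adjusted p = 0.00826, edgeR), the largest change among the 10 genes, and was lost without wild type 3 (1.34, 0.144) and with limma on TPM (1.14, 0.0526). Pdha1 overlaps Map3k15 on the other strand (expected counts 43 and 21 in wild type, 28 and 44 in circSry KO), and the library kit does not keep strand. The transcripts of Pdha2 share 37.3% of their 50-base stretches with Gm66015, an lncRNA on the other strand that has no row in the count table, and those of Pdha1 share 16.8% with other genes, so reads of these loci cannot all be told apart. Together the pair gave 175 and 164 TPM in wild type and 90.7 and 79.1 TPM in circSry KO, so the rise of Pdha1 made up little of the lower level of Pdha2.

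The complex IV isoforms were the most abundant of the genes and none was called. Cox6b2, the testis form of a subunit that faces the intermembrane space, stood at 1570 and 1566 TPM in wild type and at 1107 and 788 TPM in circSry KO. The circSry KO libraries lay below both wild type libraries by TPM, but the expected counts (2289 and 2385 against 2509 and 1380) overlapped, and the log2 fold change was -0.34 (95% interval -1.07 to 0.38, adjusted p = 0.445, edgeR). Cox6b1, its somatic partner, stood at 67.9 and 44.1 TPM in wild type and at 66.4 and 46.8 TPM in circSry KO. Its log2 fold change was 0.37 (95% interval -0.44 to 1.18, adjusted p = 0.466, edgeR). Neither gene of the pair passed the test.

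Cox8c, the testis form of a small nuclear subunit of complex IV, was the most abundant of the 10 genes, at 1997 and 2124 TPM in wild type and 2159 and 1302 TPM in circSry KO. KO 1 lay above both wild type libraries and KO 2 below them. Its log2 fold change was 0.16 (95% interval -0.61 to 0.93, adjusted p = 0.754, edgeR), with the opposite sign by limma on TPM (-0.30). Cox8a, the somatic form, stood at 54.6 and 65.9 TPM in wild type and at 50.2 and 43.6 TPM in circSry KO. The groups stood apart by TPM, but the expected counts of Cox8a (86 and 109 against 122 and 81) overlapped. The log2 fold change of Cox8a was -0.01 (95% interval -0.81 to 0.78, adjusted p = 0.980, edgeR). The intervals still allow changes of Cox8c and Cox8a of over 0.5 on the log2 scale in either direction.

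The balance within a pair was computed in each library as the log2 ratio of testis to somatic TPM, with 0.5 TPM added to each. A plain ratio within a library is free of the scaling between libraries, but the added 0.5 TPM is not, which matters most for the low Pdha1. For Slc25a31 over Slc25a4 the balance was 4.40 and 4.55 in wild type and 2.38 and 2.25 in circSry KO. This is a difference of -2.16, or 4.46-fold, and the shift was as large whichever library was left out (-2.23 to -2.08). In TPM, Slc25a31 was 22.9 and 26.6 times Slc25a4 in wild type and 5.46 and 5.0 times it in circSry KO. Its share of the pair fell from 96.1% ± 0.392 (SD, n = 2) to 83.9% ± 0.837. For Pdha2 over Pdha1 the balance was 5.99 and 6.51 in wild type and 4.10 and 3.63 in circSry KO, a difference of -2.38, or 5.22-fold, which became -2.60 with 0.05 TPM added and -1.60 with 5 TPM added. Pdha2 nonetheless remained 94.0% ± 1.37 of the pair in circSry KO, against 99.0% ± 0.342 in wild type.

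For Cyct over Cycs the balance was 3.50 and 4.16 in wild type and 3.08 and 1.79 in circSry KO. The difference of -1.40 rested mostly on KO 2, since it was -0.75 without that library and -2.04 without KO 1. For Cox6b2 over Cox6b1 the balance was 4.52 and 5.13 against 4.05 and 4.06, a difference of -0.77. For Cox8c over Cox8a it was 5.18 and 5.0 against 5.41 and 4.88, a difference of 0.06, and here the groups overlapped. The balance thus lay lower in both circSry KO libraries in 4 of 5 pairs, each with an exact permutation p of 0.33 (two-sided), the smallest that 2 libraries against 2 can give. The same measure in 8 other pairs, of 7 autosomal genes with their X-linked counterparts and of the complex IV subunits Cox7b2 and Cox7b, was lower in circSry KO in 4, higher in 1 and overlapping in 3. The lower balance was therefore seen outside these 5 pairs as well. The second gene is X-linked in at least 7 of the 8 other pairs, but among the 5 pairs only Pdha1 is X-linked. The other pairs are therefore unlike most of the 5 in this respect. The pair with a higher balance was Pgk2 over Pgk1, glycolytic kinases of the testis and of somatic cells, with a difference of 1.11. Pgk2 was itself called higher (log2 fold change 1.66, adjusted p = 0.00265, edgeR) and was lost without wild type 2 (0.0946).

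**Figure D3:**
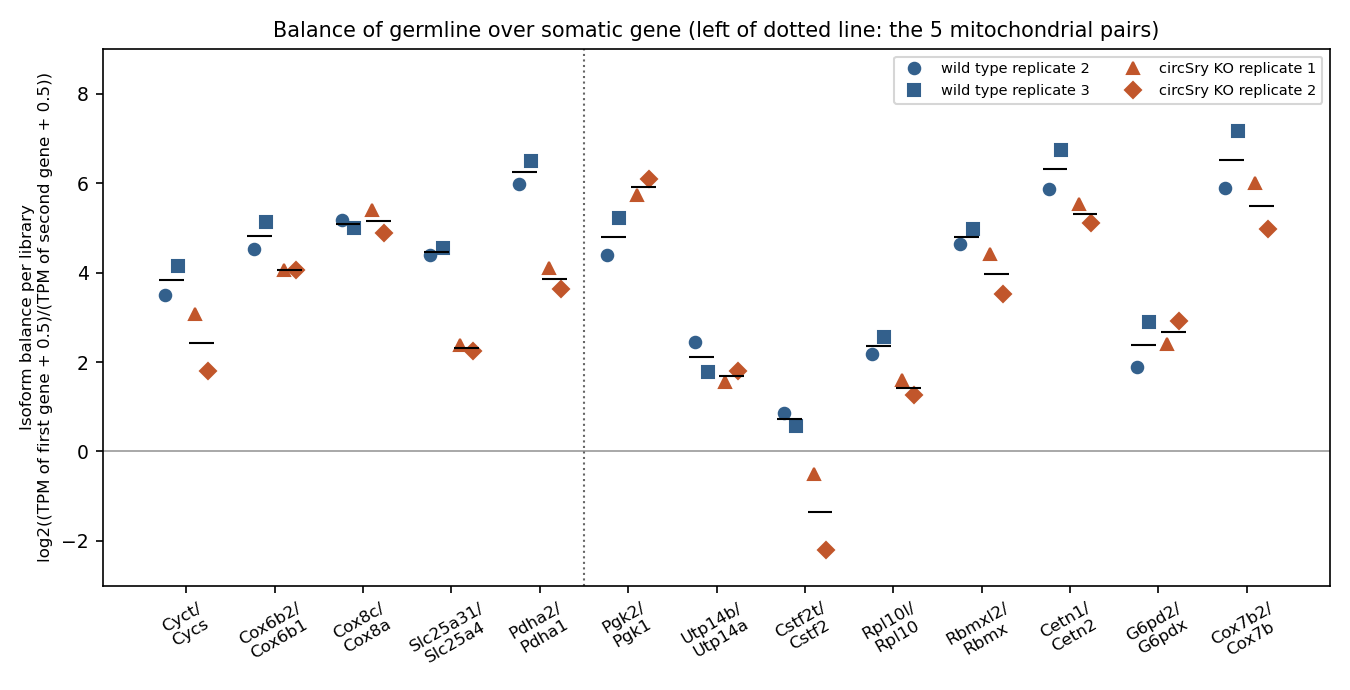
Log2 ratio of testis to somatic isoform TPM (0.5 added to each) in each library, for the 5 pairs and for 8 other pairs of a testis gene and its somatic or X-linked counterpart. Points are libraries and bars are group means (n = 2). The circSry KO points lie below the wild type points in every one of the 5 pairs except Cox8c over Cox8a.

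The other subunits and partners of these proteins were counted from lists by function. Of 11 other nuclear complex IV subunits tested (14 listed), edgeR called 0 in either direction, 0 reached an unadjusted p under 0.05, and DESeq2, limma and edgeR's likelihood ratio test called 0. Of all tested genes, edgeR called 35.0% in either direction. Their median log2 fold change was 0.23. The subunits of highest level, Cox4i1 and Cox6c, each needed for assembled complex IV, had log2 fold changes of -0.46 (adjusted p = 0.344) and -0.48 (0.285), and both were called lower without KO 1 (-1.12 and -1.06, edgeR). Of the 3 mitochondrially encoded subunits, edgeR called 0, 0 reached an unadjusted p under 0.05, and the other 3 tools called 0. The catalytic subunits mt-Co1 and mt-Co2 had log2 fold changes of -0.72 (adjusted p = 0.224) and -0.37 (0.480). With a library left out, mt-Co1 was called lower without KO 2 (-1.35, adjusted p = 0.0160) and Cox5b, a further nuclear subunit, without KO 1 (-1.12, 0.00114, edgeR). With all 4 libraries no complex IV gene of either genome was called.

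Among 12 other tested genes of the pyruvate dehydrogenase complex, its regulators and its pyruvate supply, 2 were lower, 2 higher and 8 not called. Of all tested genes, 15.0% were called lower and 20.0% higher. The counts in this list are near that background and are not by themselves a result about the complex. Dlat, the acetyltransferase core, stood at 121 and 115 TPM in wild type and at 39.1 and 46.1 TPM in circSry KO (log2 fold change -1.33, SE 0.308, adjusted p = 0.00424, edgeR). Pdhb, the beta subunit that pairs with either alpha subunit, stood at 297 and 261 TPM in wild type and at 122 and 112 TPM in circSry KO (log2 fold change -1.01, SE 0.314, adjusted p = 0.0210, edgeR). The other structural subunits were not called: Dld had a log2 fold change of -0.04 (adjusted p = 0.930) and Pdhx one of -0.05 (0.918, edgeR). Of the regulators, the kinase Pdk3, which switches the complex off, rose by 1.43 (adjusted p = 0.00335) and the phosphatase Pdp1, which switches it on, by 1.21 (adjusted p = 0.00875, edgeR). The other tested regulators were not called and had both signs, from a log2 fold change of 1.14 for the kinase Pdk1 (adjusted p = 0.0966) to -1.05 for the phosphatase subunit Pdpr (0.104, edgeR). Pdpr was called lower with no filter on low counts (-1.10). With a library left out, Pdpr had a log2 fold change of -2.22 without KO 2 and -1.53 without wild type 3. Pdk1 had 1.62 without KO 1. All 4 calls were lost without wild type 2 (adjusted p = 0.180 for Pdk3, 0.0984 for Dlat, 0.266 for Pdp1 and 0.215 for Pdhb), those on Pdp1 (0.0754) and Pdhb (0.134) also without wild type 3, and that on Pdhb also without KO 2 (log2 fold change -0.85). Pdp1 was also lost with limma (0.0859), and Pdhb with upper-quartile scaling (-0.79) and with a count of at least 50 in at least 2 libraries (-0.87).

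Among 12 tested partners of cytochrome c, 3 were called lower by edgeR, where 15.0% of all tested genes were, and 9 were not called. Cyc1, the complex III subunit that hands electrons to cytochrome c, fell from 120 and 80.6 TPM to 38.0 and 24.8 TPM (log2 fold change -1.56, SE 0.324, adjusted p = 0.00216, edgeR). The complex III core subunit Uqcrc2 had a log2 fold change of -1.14 (adjusted p = 0.00977) and the small subunit Uqcr11 one of -1.48 (adjusted p = 0.0168, edgeR). Most of the list consists of complex III subunits, and its other members of that complex were not called, with log2 fold changes from -0.51 (Uqcrb) to 0.45 (Uqcrfs1). Without KO 1, Uqcrb had a log2 fold change of -1.11. Apaf1 (-1.03, adjusted p = 0.0667, edgeR) was called lower with no filter on low counts (-1.07). In the lower direction 5 of the 12 reached an unadjusted p under 0.05 (edgeR). All 3 calls were lost without wild type 2 (adjusted p = 0.0629 for Cyc1, 0.146 for Uqcrc2 and 0.0698 for Uqcr11), Uqcrc2 also without wild type 3 (0.0872), and Uqcrc2 (-0.99) and Uqcr11 (-0.87) fell below the fold threshold without KO 2, as did Uqcrc2 with upper-quartile scaling (-0.93). None of the 12 was called higher, where 20.0% of all tested genes were. In that direction edgeR called 0, 0 reached an unadjusted p under 0.05, and DESeq2, limma and the likelihood ratio test called 0.

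Among 10 tested genes of nucleotide and phosphate exchange, 1 was lower, 2 higher and 7 not called. These counts, too, are near the shares of all tested genes (15.0% lower and 20.0% higher). Slc25a42, a carrier of coenzyme A, fell by 2.21 on the log2 scale (adjusted p = 0.00132, edgeR), from 10.3 and 7.39 TPM to 1.30 and 1.44 TPM, and held in every alternative run. The outer membrane channel Vdac1 rose by 1.12 (adjusted p = 0.0435, edgeR), as did Slc25a5. Vdac1 was lost without wild type 2 (0.231), wild type 3 (0.287) or KO 2 (0.0832), with DESeq2 (0.0801), with limma (0.158) and with no filter on low counts (0.0541).

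**Figure D4:**
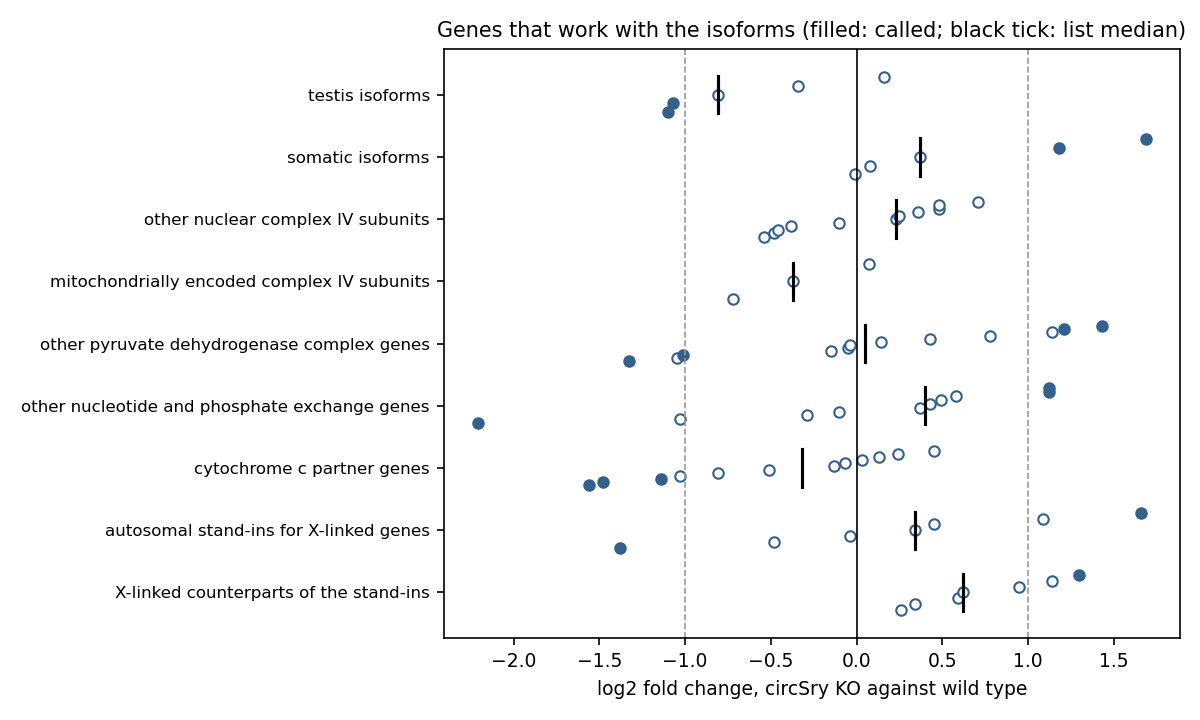
Log2 fold change of circSry KO against wild type (edgeR) for each tested gene of the testis isoforms, the somatic isoforms and the lists of partner genes, with called genes marked and a bar at each list's median. The testis isoforms have a median of -0.81, the somatic isoforms 0.37, the other nuclear complex IV subunits 0.23 and the cytochrome c partners -0.32.

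Pdha2 replaces an X-linked gene, and 7 other autosomal genes that stand in for X-linked ones in male germ cells were examined beside it. Pgk2 was called higher, Cstf2t, the testis form of an mRNA cleavage factor, lower (log2 fold change -1.38, adjusted p = 0.00483, edgeR), and 5 were not called. Of their 7 X-linked counterparts, Cetn2, a centrosome protein, was called higher (log2 fold change 1.30, adjusted p = 0.0287, edgeR), and 6 were not. With 20.0% of all tested genes called higher and 15.0% lower, the counts in both lists are near the background. The stand-ins had a median of 0.34 on the log2 scale and the X-linked counterparts one of 0.62. Among these counterparts none was called lower: edgeR called 0, 0 reached an unadjusted p under 0.05 in that direction, and the other 3 tools called 0. All 7 had log2 fold changes above 0, from 0.26 to 1.30, and 3 reached an unadjusted p under 0.05 in the higher direction (edgeR). Upper-quartile scaling called 3 of them higher, the likelihood ratio test 2, and DESeq2 and limma 0. The calls on Cstf2t (0.0883) and Cetn2 (0.0978) were lost without wild type 2, and that on Cetn2 also without wild type 3 (0.305), with DESeq2 (0.0577) and with limma (0.0643).

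Markers of other cell types moved between the same libraries, and their part in the results above was not tested. Of 6 spermatogonia markers, edgeR called 1 higher (Gfra1, log2 fold change 1.69, adjusted p = 0.00237) and 5 were not called. Limma called 0 of these 6. They summed to 109 and 81.1 TPM in wild type and to 86.1 and 88.8 TPM in circSry KO. Leptotene and zygotene spermatocyte markers were lower in 6 of 8, summing to 1289 and 936 TPM in wild type and 359 and 342 TPM in circSry KO, with Sycp3, a protein of the meiotic chromosome axis, at a log2 fold change of -1.72 (adjusted p = 0.00378, edgeR). Pachytene and diplotene markers were lower in 3 of 8 and higher in 1, summing to 2970 and 3136 TPM against 1993 and 1950. The later sum was lower through Hspa2, a testis heat shock protein (1440 and 1424 TPM against 685 and 770, not called), and Piwil1, a piRNA-binding protein (644 and 468 TPM against 17.2 and 31.1). The other 6 of these markers summed to 886 and 1244 TPM in wild type and 1290 and 1149 TPM in circSry KO. That sum hides opposite calls by edgeR. Pou5f2 (log2 fold change -3.18, adjusted p = 0.000166) and Mybl1 (-1.07, 0.0133) were lower, and Spag6 (1.34, 0.0120) was higher. The leptotene and zygotene markers were thus mostly lower where Cyct and Slc25a31 were lower, and the pachytene and diplotene ones had no common direction. All 8 round spermatid and all 8 elongating spermatid markers were called higher, with Prm1, a sperm protamine, at a log2 fold change of 3.20 (adjusted p = 0.000119, edgeR). Without wild type 2, 2 of the 8 round and all 8 elongating spermatid markers were called higher. Spermatid markers were therefore up in both circSry KO libraries while no testis isoform was called higher (edgeR called 0, 0 reached an unadjusted p under 0.05 in that direction, and DESeq2, limma and the likelihood ratio test called 0). Of all tested genes, edgeR called 20.0% higher.

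Somatic cells express Slc25a4 and Pdha1, so their markers stand beside the rise of these genes. Sertoli markers were higher in all 6 tested of 7 listed, summing to 25.2 and 12.7 TPM in wild type and 69.9 and 163 TPM in circSry KO, and Rhox5 was listed at 0 in wild type 3. Peritubular and stromal markers were higher in 7 of 7 (76.9 and 52.5 TPM against 302 and 379), and leukocyte markers in 7 of 7 (22.4 and 17.6 TPM against 390 and 300). Leydig markers went the other way, lower in 7 of 7 (1888 and 1592 TPM against 679 and 617), or in 3 without wild type 2 and 4 without wild type 3. Of 5 endothelial markers, edgeR, DESeq2 and the likelihood ratio test called 0, 0 reached an unadjusted p under 0.05, and limma called 1 higher. The share of all tested genes called by edgeR in either direction was 35.0%. Somatic markers of 3 kinds were thus higher in both circSry KO libraries, where Slc25a4, Slc25a5 and Pdha1 were higher as well, while Cycs, Cox6b1 and Cox8a, which somatic cells also express, were not called.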

How the data were processed

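RNA-seq libraries were made from total RNA with an Illumina kit that does not keep strand. Per the labels, the authors used STAR 2.7.0f, RSEM 1.3.2 and edgeR 3.28.1 with GRCm39 (mm9 is also listed), and no annotation release is named in the sources used. The authors deposited, per gene and library, RSEM expected counts (not normalized), TPM and FPKM, the latter both scaled by length and depth. A repeat of the TPM (4 columns) and the authors' own comparison tables of log2 fold changes and p-values were not used.

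Rounded expected counts were the input, and edgeR 4.0.16 in R 4.3.3 was fitted to them (filterByExpr, TMM, glmQLFit, glmQLFTest, common dispersion 0.0685) across all genes, with Benjamini-Hochberg adjustment over 17766 genes. Levels were compared between genes by TPM, and FPKM served only as a check of direction. Alternatives were upper-quartile scaling, DESeq2 1.42.0, no filter on low counts, a count of at least 50 in at least 2 libraries, limma 3.58.1 on log2(TPM + 1), the likelihood ratio test, other pseudocounts and each library left out. The steps were tested on simulated data that had the common dispersion for every gene and both groups. That is simpler than the spread of the real libraries, so it was no test of the calls on these genes. Replicates were distinct libraries (chi-square per gene 11.6 in wild type and 39.9 in circSry KO). The circSry KO libraries thus differed from each other more than the wild type libraries did, and the fit used the same dispersion for both groups. Sequences were compared with Biopython 1.88.

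The members and lists were chosen with earlier results of these data known. All 10 members were named, and of each list up to 4 called genes by adjusted p, otherwise those of highest mean TPM. Map3k15, Gm66015, Pdk1, Pdpr, Dld, Pdhx, Uqcrb, Uqcrfs1, Apaf1, Cox5b, Piwil1, Pou5f2, Spag6, Mybl1, Gfra1 and Cox7b2 with Cox7b, and the use of the balance in 8 other pairs, were added after values were seen.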

Additional observations from a re-analysis of the deposited data

How the results depend on the processing

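Among values that answer a comparison, 61 kept their size or side of the threshold under an alternative and 19 moved; among single genes 638 kept their call, 50 lost it and 28 gained it, and no called direction turned. Of the 10 isoform genes, the 2 called higher became 1 with DESeq2 and 0 with limma on TPM (0 to 2 with a library left out), and the 2 called lower became 0 with upper-quartile scaling and 0 with a count of at least 50 in at least 2 libraries (0 to 3 with a library left out). Of the listed partner genes, the 6 called higher became 3 with DESeq2 and 2 with limma (0 to 9 with a library left out), and the 7 called lower ran from 1 to 11 with a library left out. The balance of Slc25a31 over Slc25a4 (-2.16) was -1.73 with a pseudocount of 5 TPM and -2.27 from expected counts, and that of Pdha2 over Pdha1 (-2.38) was -1.60 with a pseudocount of 5 TPM. With a library left out the balance differences ran from -2.04 to -0.75 (Cyct), -1.08 to -0.47 (Cox6b2), -0.21 to 0.32 (Cox8c), -2.23 to -2.08 (Slc25a31) and -2.64 to -2.13 (Pdha2). Genome-wide, 1232 genes were higher and 952 lower without wild type 2, 1940 higher without wild type 3, 2219 higher and 2831 lower with limma; of those called, 57.1% were higher in the fit reported, 69.2% with upper-quartile scaling and 43.9% with limma. The cause of these changes was not tested. No paired analysis was made because the labels name no pairing between wild type and circSry KO mice. Depth limits Pdha1 and Slc25a4 most, with expected counts of 19 to 45 in wild type.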
